A study of Homo sapiens with 9 samples.

Results

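The GATA transcription factors *GATA2*, *GATA3*, *GATA4*, *GATA5* and *GATA6* were followed by symbol in the count tables of both single-cell libraries (ENSG00000179348, ENSG00000107485, ENSG00000136574, ENSG00000130700 and ENSG00000141448). They are 5 of the 36601 genes listed, and all 5 were found. In human extra-embryoids (hEEs) they divided as follows: *GATA3*, *GATA4*, *GATA5* and *GATA6* were far higher in the hypoblast-like layer than in the PI-Epi-like (post-implantation epiblast-like) compartment on both days, whereas *GATA2*, *GATA3* and *GATA5* were higher in PI-Epi-like cells that held *TFAP2A* RNA than in those without, with no such difference detected for *GATA4* or *GATA6*. Between day 4 (D4) and day 6 (D6), *GATA6* more than doubled in the hypoblast-like layer while *GATA3* held its level.

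hEEs are aggregates that wild-type ESI017 cells, a human pluripotent stem cell line, form in microwells, with an inner PI-Epi-like compartment and an outer hypoblast-like layer. Per the paper, the starting cells were kept in expanded potential medium with an added WNT inhibitor and ROCK inhibitor. A ROCK inhibitor was also present early in aggregation. The aggregates grew at reduced oxygen, and before day 4 their spontaneous differentiation medium was changed for a second culture medium. No further treatment is described for these aggregates, which were collected on day 4 and day 6 in vitro. Aggregates of each day were pooled into 1 droplet library of 3′ unique molecular identifiers (UMIs, 1 for each captured RNA molecule). Only aggregates with a visible inner and outer compartment entered, and the outer layer took longer to dissociate. With 1 library per day, a difference between days compares those 2 libraries and no test was possible, so each value is given with an exact interval at the 95% level that covers counting error only. A single line and pooled aggregates leave the spread between donors and between cultures unmeasured.

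GATA proteins are zinc-finger factors that bind DNA at the letters GATA. *GATA6* and *GATA4* act in primitive endoderm, the precursor of the hypoblast, and in heart and gut endoderm. *GATA2* and *GATA3* are best known from blood, trophoblast and surface ectoderm, including amnion, where *GATA3* is an early target of BMP signalling, and *GATA5* serves in endoderm and heart.

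The libraries held 10943 cells at D4 and 11483 at D6, with 151712246 and 150320228 UMIs. Cells with 3430 to 27500 UMIs and at most 10% mitochondrial UMIs were kept, 9151 and 10097 of them, with medians of 12717 and 12960 UMIs. The libraries shared 40 barcodes.

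Kept cells were grouped by UMI counts of genes that are not GATA members. The embryonic gate, for PI-Epi-like cells, asked for at least 5 *POU5F1*, at least 1 *SOX2* and at most 2 *FN1* UMIs and held 3716 cells at D4 and 5054 at D6. Within it, 81 and 350 cells had at least 2 UMIs of *TFAP2A*, a factor of amnion and surface ectoderm, and 3392 and 4362 had none. The hypoblast gate asked for at least 3 *FN1*, no *SOX2* and at most 5 *POU5F1* UMIs and held 4061 and 3567 cells. These are ranges of counts, not cell types: 394 and 620 embryonic cells sat at 1 *SOX2* UMI, 53 of the 81 and 161 of the 350 at 2 *TFAP2A* UMIs, and 279 and 269 hypoblast cells at 3 *FN1* UMIs. Another 15.0% and 14.6% of kept cells entered neither gate.

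Most genes of an endoderm list, none of which set the gates, were higher in the hypoblast gate, as were most mesoderm and heart genes given further below. Of 20 endoderm partners and targets, 15 at D4 and 17 at D6 were at least 2-fold higher in the hypoblast gate and 2 and 1 lower, with median log2 ratios of 3.15 and 3.77 against −0.05 and −0.18 over all genes. Over all genes 15.2% and 14.7% were that much higher, and 16.5% and 22.2% lower. Levels are given as CPM, a gene's UMIs summed over a group's cells per 1000000 UMIs of that group. Among the 20 endoderm genes, *FOXA2*, a pioneer factor of endoderm, stood at 129 and 145 CPM against 3.36 and 1.28 in the embryonic gate. *RSPO3*, a WNT co-agonist with the highest D4 ratio of the list, stood at 68.8 and 443 against 0.692 and 2.75. Of 8 pluripotency genes, 6 were lower in the hypoblast gate on both days and 2 of these, *POU5F1* and *SOX2*, had set the gates. Of the 20 endoderm genes, *AFP* was lower in the hypoblast gate at D4 (0.397 against 4.60 CPM, but 16.1 against 1.76 at D6). *NID2*, a basement membrane gene of the same list, was lower on both days (0.564 against 1.38 and 0.551 against 2.74). Levels are not scaled by length, so genes are compared with themselves across groups, and shares of the family's UMIs are shares of captured molecules.

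Of the 5 GATA members, 4 were at least 2-fold higher in the hypoblast gate at D4 and the same 4 at D6, where 15.2% and 14.7% of all genes with at least 10 UMIs over both gates were that much higher. *GATA6* had the largest ratio and *GATA4* the second on both days, and *GATA2* ran the other way over the embryonic gate as a whole.

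*GATA6* stood at 121 CPM in the hypoblast gate at D4 (118 to 124) and 297 at D6 (292 to 303), against 1.70 (1.38 to 2.07) and 2.91 (2.54 to 3.33) in the embryonic gate. Its log2 ratio was 6.16 at D4 and 6.67 at D6. *GATA4* stood at 72.4 (70.0 to 74.9) and 88.0 (85.1 to 90.8) in the hypoblast gate against 1.28 and 1.04 in the embryonic gate, log2 ratios of 5.82 and 6.40. Both are thus endoderm factors whose UMIs lay almost wholly on the hypoblast side of the gates.

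*GATA3* was the most captured member of the hypoblast gate at D4, with 223 CPM (219 to 227), and stood at 222 (218 to 227) at D6. The embryonic gate held 7.75 (7.05 to 8.50) and 4.89 (4.40 to 5.42), which gave log2 ratios of 4.85 and 5.51. A gene known from trophoblast and amnion was thus read in 82.9% of hypoblast-gate cells at D4 and 82.8% at D6, with up to 20 UMIs in a single cell on each day. Of 16 trophoblast genes, among them *CGA*, *ELF5* and *TP63*, 11 at D4 and 10 at D6 had no UMI in the hypoblast gate, and the hormone gene *CGA* had 3 and 1 UMIs there. The 1 that could be measured, the envelope gene *ERVW-1*, was higher in the hypoblast gate, at 1.21 and 2.01 CPM against 0.415 and 0.267. Of the 16 amnion and surface ectoderm genes, 9 of 14 measured at D4 and 6 of 14 at D6 were higher in the hypoblast gate and 3 and 4 lower, with median log2 ratios of 1.69 and 0.47. Over all genes 15.2% and 14.7% were higher there, and 16.5% and 22.2% lower. *ISL1* led at D4 (25.6 against 0.606 CPM) and *MSX1*, a homeobox gene, at D6 (12.9 against 0.588), whereas *TFAP2C*, the relative of *TFAP2A*, was among the lowest on both days (0.209 and 0.311 against 7.96 and 9.84).

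*GATA5* was lower, at 18.2 CPM (17.0 to 19.5) and 14.5 (13.3 to 15.7) in the hypoblast gate against 1.97 and 1.36 in the embryonic gate, log2 ratios of 3.21 and 3.41. *GATA2* was the exception, with 1.71 (1.36 to 2.13) and 1.13 (0.827 to 1.50) in the hypoblast gate against 2.65 (2.24 to 3.10) and 1.87 (1.57 to 2.21) in the embryonic gate. Its log2 ratios of −0.63 (−1.03 to −0.23) and −0.73 (−1.24 to −0.25) stayed within 2-fold under the main settings. Over the other settings run, the ratio lay between −0.92 and −0.58 at D4. At D6 it lay between −2.05 and −0.73, and so passed 2-fold. Against embryonic-gate cells with no *TFAP2A* alone, the *GATA2* log2 ratios were −0.28 (−0.71 to 0.14) at D4 and 0.06 (−0.51 to 0.61) at D6. No difference from the hypoblast gate was thus detected for those cells, which make up most of the embryonic gate.

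**Figure D1:**
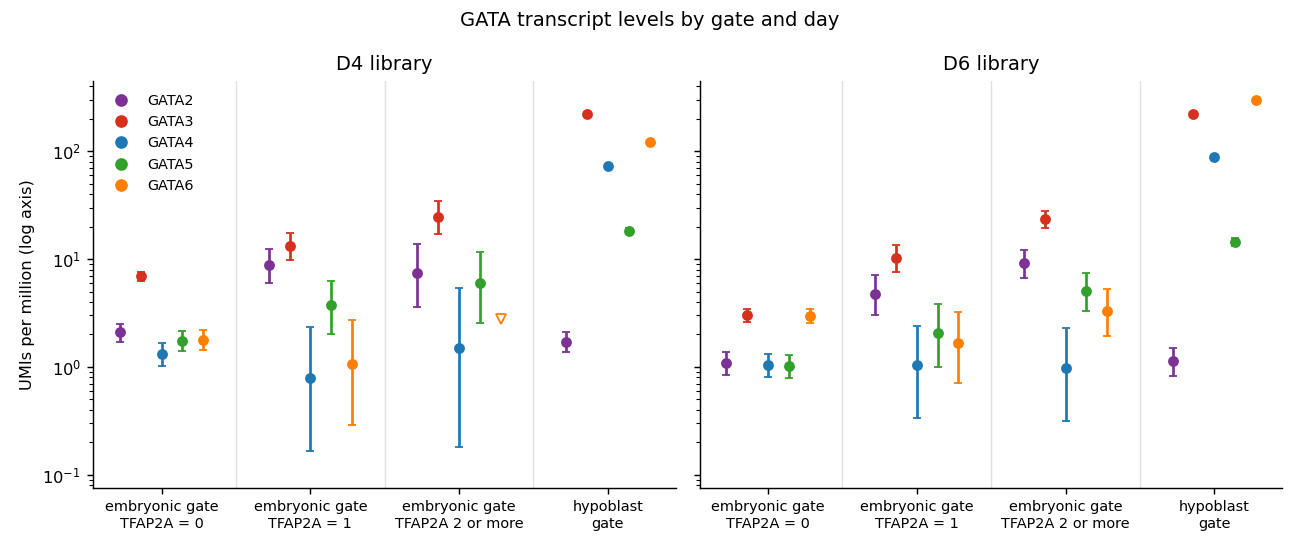
Level of each GATA member (CPM, log axis) in embryonic-gate cells with 0, 1 and at least 2 *TFAP2A* UMIs and in the hypoblast gate, at D4 and D6. Bars are 95% exact Poisson intervals, counting error only, and the open triangle is the upper limit for a gene with no UMI. *GATA4* and *GATA6* are high in the hypoblast gate alone, *GATA3* and *GATA5* climb with *TFAP2A* as well, and *GATA2* is highest in cells with *TFAP2A* on D6.

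Cells with at least 1 UMI followed the levels. In the hypoblast gate *GATA6* was read in 60.4% of cells at D4 and 83.4% at D6, *GATA4* in 53.7% and 60.4%, *GATA5* in 18.2% and 14.5%, and *GATA2* in 1.95% and 0.757%. The gates differed in depth, with medians of 11012 and 10902 UMIs in the hypoblast gate against 15158 and 14226 in the embryonic gate, so each cell was also thinned to 3430 UMIs. Thinned shares in the hypoblast gate were 50.5% and 49.2% for *GATA3*, 30.0% and 56.2% for *GATA6*, 21.5% and 24.5% for *GATA4*, and 5.71% and 4.91% for *GATA5*. In the embryonic gate all thinned shares were at or below 2.18%, the D4 value of *GATA3*, and lay under the hypoblast shares of the same gene for every member but *GATA2*.

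Nearly every hypoblast-gate cell held a GATA RNA: 96.5% at D4 and 98.7% at D6 had a UMI of at least 1 member. At least 2 members were read in 73.9% and 86.1%, at least 3 in 38.9% and 49.9%, and at least 4 in 7.49% and 6.98%. The embryonic gate had any member in 16.8% and 12.6% of cells, and at least 2 in 2.56% and 1.44%.

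Taking all 5 members as 1 pool, the family summed to 436 CPM in the hypoblast gate at D4 and 623 at D6, and its make-up shifted. *GATA3* made up 51.1% of the pool at D4 and 35.7% at D6, whereas *GATA6* went from 27.8% to 47.7%. *GATA4* contributed 16.6% and 14.1%, *GATA5* 4.17% and 2.32%, and *GATA2* 0.393% and 0.181%. Capture of each RNA at its 3′ end may differ between genes, so only the shift within the pool, and not its order, compares like with like.

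**Figure D2:**
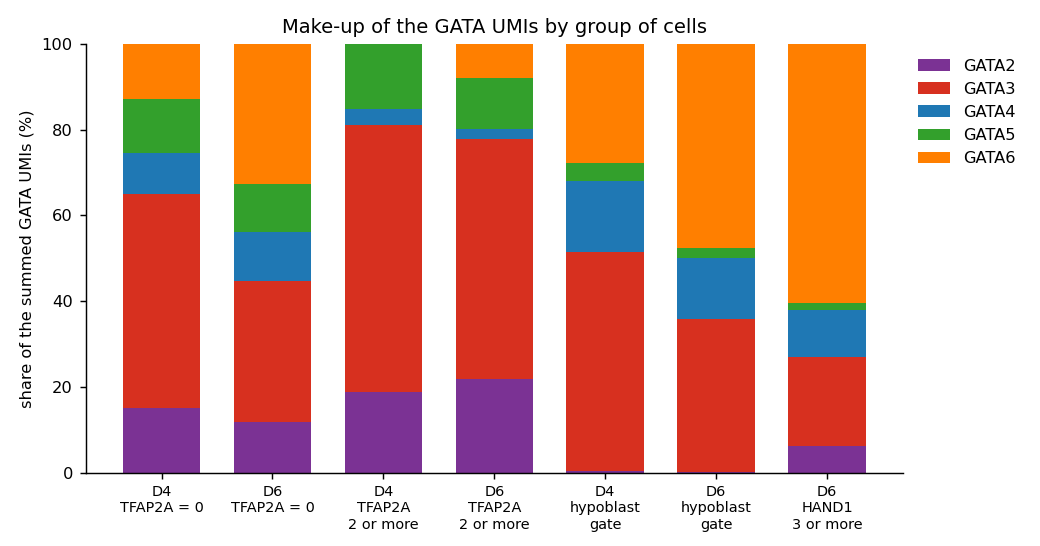
Make-up of the summed GATA UMIs (percent of all UMIs of the 5 members, stacked) in embryonic-gate cells without and with *TFAP2A*, in the hypoblast gate and in *HAND1* cells. The hypoblast gate goes from a *GATA3* majority at D4 (51.1%) to a *GATA6* plurality at D6 (47.7%), and the *TFAP2A* cells are mostly *GATA3* on both days (62.3% and 56.0%).

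From D4 to D6, 1 of the 5 members changed 2-fold or more in the hypoblast gate, where 12.4% of all genes did. *GATA6* rose 2.46-fold (log2 1.30, 1.25 to 1.34), from 5795 UMIs in 4061 cells to 12422 in 3567 cells. *GATA4* was 0.28 higher on the log2 scale (0.21 to 0.35), *GATA3* was level at −0.003 (−0.04 to 0.04) and *GATA5* lower by 0.33 (−0.48 to −0.18). The *GATA3* interval allows a difference of at most 0.04 either way between these libraries.

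*GATA2* was lower by 0.61 (−1.16 to −0.07) in the same comparison, and this value depended on a handful of cells. Of its 47 UMIs in the D6 hypoblast gate, 14 came from 1 cell and 27 (57.5%) from 7 of the 36 cells with at least 3 UMIs of *HAND1*, a factor of extra-embryonic mesoderm, amnion and heart. Without those *HAND1* cells on either day the level was 0.485 (0.297 to 0.750) at D6 and the fall from D4 was 3.54-fold (log2 −1.82, −2.61 to −1.10), past 2-fold. Without the 1 cell alone the log2 ratio was −1.12 (−1.75 to −0.52). The other members moved little when the *HAND1* cells were left out, and *GATA6* kept a log2 ratio of 1.30. Stricter gates, gate genes scaled to 10000 UMIs per cell and thinned cells also took *GATA2* past 2-fold (−1.36, −1.29 and −1.25).

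The antisense RNA beside *GATA6* rose with it. *GATA6-AS1* went from 25.5 to 96.9 CPM in the hypoblast gate (3.81-fold, log2 1.93, 1.84 to 2.02) and from 22.4% to 57.3% of cells. *GATA3-AS1* stood at 19.6 and 17.7 (log2 −0.14, −0.28 to −0.001) and *GATA2-AS1* at 0.920 and 0.886. In the embryonic gate *GATA6-AS1* was 0.588 and 1.39, *GATA3-AS1* 0.675 and 0.508, and *GATA2-AS1* 0.450 and 0.200. All 3 antisense RNAs were thus at least 2-fold higher in the hypoblast gate on both days, where 15.2% and 14.7% of all genes were. *GATA2-AS1* only just passed at D4, with 44 against 26 UMIs (log2 1.03, 0.30 to 1.79, which reaches below 2-fold). At D6 its log2 ratio was 2.14 (1.2 to 3.1). Its sense gene was not higher there. *GATA2* and *GATA2-AS1* overlap over 3999 bases of chromosome 3 in the RefSeq annotation of GRCh38.p14. Whether counting used strand is not given in the sources used here, and how reads from that stretch were assigned was not checked.

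*GATA6* and *GATA6-AS1* do not overlap. In the same annotation *GATA6-AS1* spans chr18:22166898-22168968 and *GATA6* chr18:22169589-22202528, with 620 bases between them. The 250 bases before the start of *GATA6* (RefSeq, GRCh38.p14, chr18:22169339-22169588, plus strand) lie within that gap between the pair of RNAs that rose together, and are printed for that reason. Capitals mark the only match found, a CCAAT box that begins 92 bases before the gene start.
GATA6: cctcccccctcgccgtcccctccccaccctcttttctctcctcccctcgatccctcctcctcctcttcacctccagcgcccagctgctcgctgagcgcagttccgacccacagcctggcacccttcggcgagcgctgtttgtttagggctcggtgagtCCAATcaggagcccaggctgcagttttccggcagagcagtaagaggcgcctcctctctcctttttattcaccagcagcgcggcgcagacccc

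Windows of this length were searched on both strands for a GATA-binding word (AGATAA or AGATAG or TGATAA or TGATAG) and, separately, for CCAAT. The table had 9 windows for 3 members, *GATA2*, *GATA3* and *GATA6*, and none of the 9 held a GATA word (so none overlapped a CCAAT match), against 22.3% of 35116 windows of 27305 genes. CCAAT was in 4 of the 9 and in 32.0% of all. A match is a run of letters and not a measured binding site.

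Within the hypoblast gate the members were set against marker genes of states that the layer holds: *CER1*, a secreted NODAL and BMP antagonist of the anterior visceral endoderm (at least 3 UMIs), *ISL1* (at least 1), *NPPB* (at least 3) and *APOA4* (at least 1). A cell could carry several markers and then counted in each subset. Cells with none of these markers, 2370 at D4 and 1755 at D6, served as the reference.

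*GATA3* was lowest in the *CER1* cells (427 and 88 cells), at 142 CPM at D4 and 124 at D6, against 224 and 233 in cells with no marker, log2 differences of −0.66 and −0.91. It was highest in the *ISL1* cells (957 and 203), at 265 and 289, and in between in the *NPPB* cells (373 and 401) at 169 and 189. *GATA6* ran the opposite way: 174 and 346 in *CER1* cells and 203 and 346 in *NPPB* cells, but 90.3 and 209 in *ISL1* cells, against 111 and 271 with no marker. *ISL1*, like *GATA3*, is a gene of amnion as well as of other lineages.

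*GATA5* was also low in *CER1* cells, at 5.97 and 6.52 CPM against 19.5 and 14.5 in cells with no marker (log2 −1.70 and −1.16). *GATA4* varied less: over the 5 subsets it ran from 68.8 to 90.8 at D4 and from 80.4 to 92.4 at D6. At D4 it was above the reference in *NPPB* cells (log2 0.365, 0.22 to 0.51) and *APOA4* cells (0.32, 0.12 to 0.50). At D6 no such difference was detected (0.07, −0.08 to 0.21 and −0.002, −0.10 to 0.10). The *APOA4* cells, 222 at D4 and 1432 at D6, had *GATA6* above the reference (171 and 332) and *GATA3* near it (223 and 213).

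The D6 increase in *GATA6* was seen in each subset, by 2.44-fold in cells with no marker, 2.31-fold in *ISL1* cells, 1.99-fold in *CER1* cells, 1.94-fold in *APOA4* cells and 1.71-fold in *NPPB* cells. The whole gate gave 2.46-fold, and the sizes of the subsets differed between the days as well. *ISL1* itself fell from 25.6 to 6.11 CPM over the gate, with fewer *ISL1* cells at D6 (203 against 957).

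**Figure D3:**
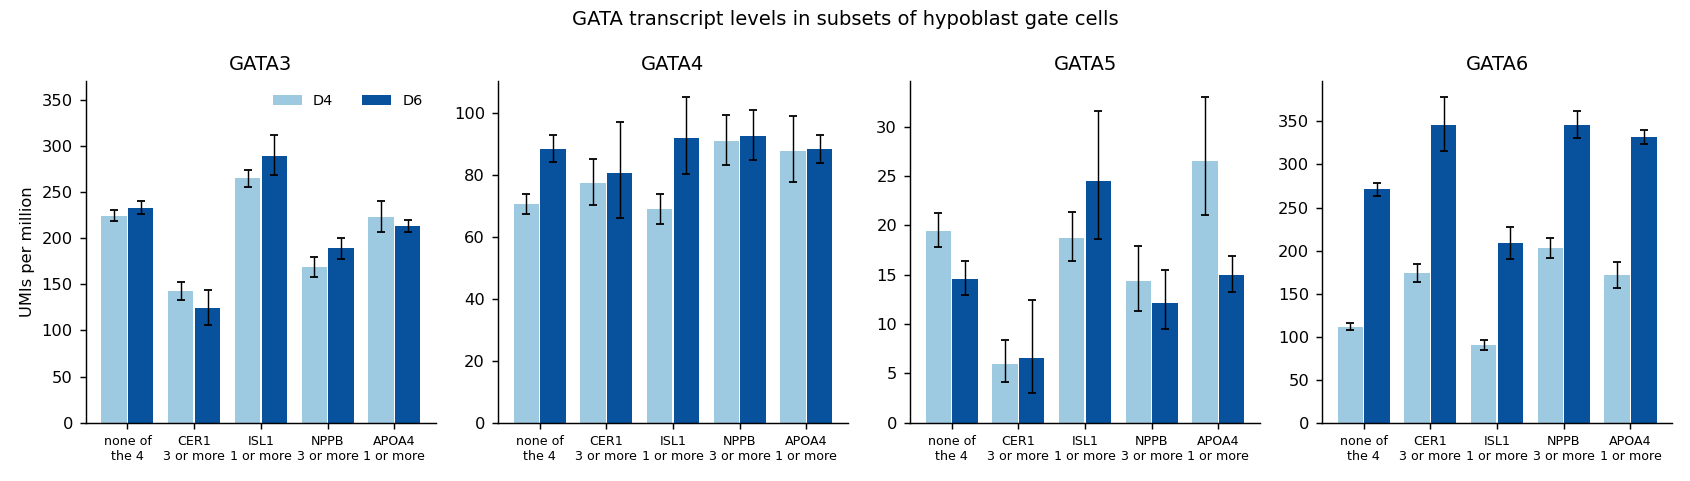
*GATA3*, *GATA4*, *GATA5* and *GATA6* (CPM, 1 panel each) in hypoblast-gate cells with none of the markers and with *CER1*, *ISL1*, *NPPB* or *APOA4*, at D4 (light) and D6 (dark). Bars start at 0 and error bars are 95% exact Poisson intervals. *GATA3* and *GATA5* are lowest in *CER1* cells, *GATA6* is lowest in *ISL1* cells and higher at D6 in every subset, and *GATA4* varies least.

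Most hypoblast-gate cells mixed members. *GATA3* and *GATA6* were read together in 50.3% of cells at D4 and 68.8% at D6, *GATA3* and *GATA4* in 45.9% and 51.6%, and *GATA4* and *GATA6* in 35.6% and 51.6%. With each cell thinned to 3430 UMIs, *GATA6* was found in 32.8% (29.7 to 36.0) of *GATA4*-positive and 29.2% (27.6 to 30.8) of *GATA4*-negative cells at D4, and in 58.9% (55.6 to 62.2) and 55.3% (53.4 to 57.2) at D6. *GATA6* was thus read a little more often in cells with *GATA4* than in cells without it, with intervals that overlapped on both days.

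*GATA3* and *GATA6* did not go together in this way. Thinned, *GATA6* was read in 29.0% of *GATA3*-positive and 31.0% of *GATA3*-negative cells at D4, with overlapping intervals, and in 53.8% (51.5 to 56.2) and 58.5% (56.2 to 60.8) at D6. *GATA5* went with *GATA3* at D4, read in 7.02% (5.95 to 8.21) of *GATA3*-positive against 4.38% (3.53 to 5.37) of *GATA3*-negative cells. At D6 it was read in 5.59% (4.56 to 6.77) against 4.25% (3.37 to 5.28), with intervals that overlapped.

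Hypoblast-gate cells were also ordered by their thinned *GATA6* count. From cells with 0 to cells with at least 3 *GATA6* UMIs (2844 and 85 cells at D4, 1562 and 353 at D6), *GATA3* went from 228 to 165 CPM at D4 and from 251 to 191 at D6, and *GATA4* from 67.9 to 92.6 and from 77.7 to 84.2. The *GATA4* intervals overlapped on both days (62.8 to 73.2 against 61.0 to 134.7 at D4, 70.4 to 85.5 against 68.7 to 102.3 at D6). *ISL1* went from 29.5 (26.2 to 33.1) to 6.86 (0.831 to 24.8) at D4 and from 9.15 (6.77 to 12.1) to 0.826 (0.0209 to 4.60) at D6. Those intervals did not overlap, but the highest bins held 2 *ISL1* UMIs at D4 and 1 at D6, so the size of the difference is imprecise. *CER1* went from 161 to 727 at D4 but from 37.3 to 30.6 at D6 in these thinned cells. With all UMIs, in bins that differ in depth, it was higher with *GATA6* on both days. It went from 112 to 427 at D4 and from 6.88 to 50.5 at D6. *APOA1*, a lipoprotein gene of visceral endoderm, went from 1416 to 2514 and from 10931 to 12915. All cells of a day come from the same library, and the bins are ranges of sparse counts.

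**Figure D4:**
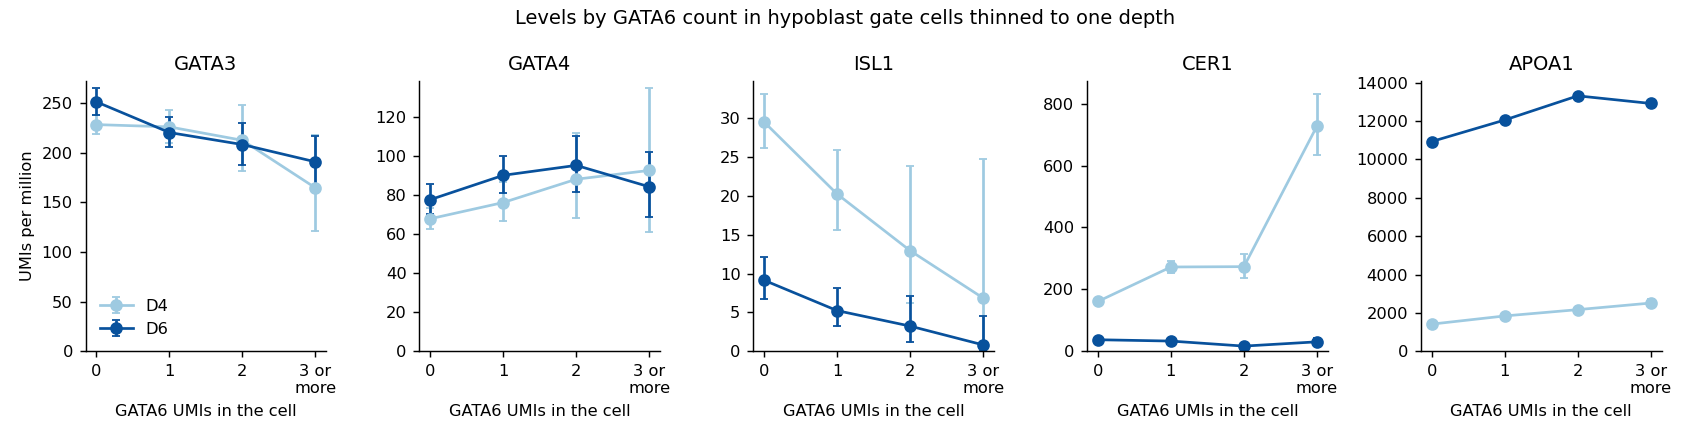
Levels of *GATA3*, *GATA4*, *ISL1*, *CER1* and *APOA1* (CPM) in hypoblast-gate cells with 0, 1, 2 and at least 3 *GATA6* UMIs after thinning to 3430 UMIs per cell, at D4 and D6, with 95% exact Poisson intervals. *GATA3* is lower in cells with at least 3 *GATA6* UMIs than in cells with none on both days. *CER1* is higher in them at D4, at 727 against 161, and not at D6 in these thinned cells.

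In the embryonic gate the question was which members go with *TFAP2A*. Of the 5 members, 3 (*GATA2*, *GATA3* and *GATA5*) were at least 2-fold higher in cells with at least 2 *TFAP2A* UMIs than in cells with none, on D4 and on D6, where 7.71% and 4.72% of all genes with at least 10 UMIs were.

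*GATA3* stood at 24.6 CPM (16.9 to 34.6) in the 81 *TFAP2A* cells of D4 and 23.6 (19.6 to 28.2) in the 350 of D6, against 6.93 and 3.01 in cells with no *TFAP2A*. The log2 ratios were 1.83 (1.27 to 2.35) and 2.97 (2.63 to 3.31), and cells with 1 *TFAP2A* UMI lay between at 13.3 and 10.3. *GATA2* stood at 7.46 (3.58 to 13.7) and 9.16 (6.73 to 12.2) against 2.09 and 1.08, log2 ratios of 1.84 (0.74 to 2.77) and 3.08 (2.52 to 3.64). The D4 value of *GATA2* rests on 10 UMIs and came to 0.63 in thinned cells.

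*GATA5* stood at 5.97 (2.58 to 11.8) and 5.06 (3.31 to 7.42) against 1.75 and 1.02, log2 ratios of 1.77 (0.52 to 2.81) and 2.32 (1.60 to 2.99). *GATA4* and *GATA6* did not follow. *GATA4* had 2 and 5 UMIs in the *TFAP2A* cells, with log2 ratios of 0.19 (−2.89 to 2.10) and −0.11 (−1.78 to 1.19). *GATA6* had none in the 81 D4 cells, which allows up to 2.75 CPM against 1.78 measured in cells with no *TFAP2A*, so no difference was detectable at this depth, and its D6 log2 ratio was 0.15 (−0.66 to 0.87).

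Shares of *TFAP2A* cells with a UMI were 29.6% and 22.0% for *GATA3*, 12.3% and 11.7% for *GATA2*, and 9.88% and 7.14% for *GATA5*. The *TFAP2A* cells had medians of 15444 and 13980 UMIs per cell, and cells with no *TFAP2A* 15168 and 14298. Any member was read in 40.7% and 36.0% of the *TFAP2A* cells, and at least 2 in 11.1% and 8.29%. *GATA3* made up 62.3% and 56.0% of their GATA UMIs, *GATA2* 18.9% and 21.8%, and *GATA5* 15.1% and 12.0%.

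Free RNA from broken hypoblast-like cells would raise all hypoblast genes in the embryonic gate by a like percentage of their hypoblast level, so each member was given as that percentage, beside the secreted-protein genes *APOA1* and *APOA2*. In cells with no *TFAP2A*, *APOA1* was at 1.33% of its hypoblast level at D4 and 0.754% at D6, and *APOA2* at 1.42% and 0.897%. *GATA6* was at 1.47% and 1.00% (0.864 to 1.15) and *GATA4* at 1.81% and 1.19% (0.924 to 1.51). *GATA4* and *GATA6* thus lay close to the lipoprotein genes at D4. At D6 they lay above *APOA1*, but their intervals overlapped that of *APOA2* (0.830 to 0.967). The part of free RNA in the UMIs of *GATA4* and *GATA6* was not tested.

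*GATA3* was above *GATA4* and *GATA6* in cells with no *TFAP2A* at D4, at 3.11% (2.79 to 3.45), but its 1.35% (1.17 to 1.56) at D6 overlapped with *GATA4*. *GATA5* was at 9.59% and 7.04%. In the *TFAP2A* cells *GATA3* reached 11.1% (7.60 to 15.5) and 10.6% (8.78 to 12.7) and *GATA5* 32.8% and 35.0%, while *APOA1* was at 0.645% and 0.910% and *GATA6* at 0 and 1.11%. *GATA2*, at 435% and 814% there, was the 1 member higher than in the hypoblast gate. Other hypoblast RNAs were not at a single percentage over the embryonic gate, with *APOE* at 17.2% and 12.7% and *COL4A1* at 10.5% and 6.74%. At D6 *TTR* (0.392%, 4 UMIs) and *APOC3* (0.726%, 11 UMIs) lay below *APOA1* (0.752%) and *APOA2* (0.868%) over that gate. *APOA1* and *APOA2* thus give a low level among these RNAs and not a fixed correction.

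**Figure D5:**
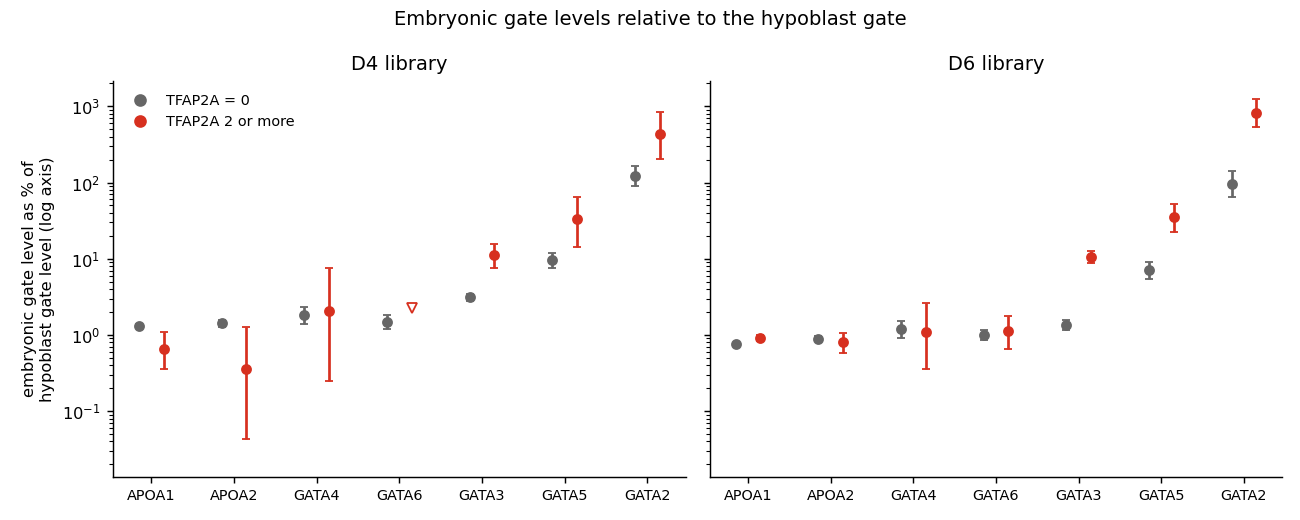
Level in the embryonic gate as a percentage of the level in the hypoblast gate (log axis) for *APOA1*, *APOA2* and the 5 GATA members, in cells with no *TFAP2A* (grey) and with at least 2 *TFAP2A* UMIs (red), at D4 and D6, with 95% intervals for counting error and an open triangle at the upper limit for *GATA6*, which had no UMI in red at D4. *GATA4* and *GATA6* lie within 2-fold of *APOA1* in grey and have wide intervals or no UMI in red, whereas *GATA3*, *GATA5* and *GATA2* are higher in red than in grey.

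The few *GATA6* reads of the embryonic gate sat in cells with more *APOA1* RNA. Among cells with no *TFAP2A*, those with a *GATA6* UMI had *APOA1* at 221 CPM at D4 and 578 at D6, against 17.1 and 70.6 in those without. Scrublet, which scores a cell's likeness to simulated doublets, called 15.2% and 14.8% of them doublets against 0.662% and 0.973%. *GATA4* was alike (14.3% and 19.0%, against 0.691% and 1.21% of cells without it). *GATA3* followed with 6.84% and 11.5% against 0.418% and 1.07%, and *GATA5* with 2.33% and 4.69% against 0.907% and 1.40%. *APOA1* stood at 74.3 and 559 CPM in cells with *GATA3* against 16.4 and 70.7, and at 55.2 and 209 in cells with *GATA5* against 20.6 and 88.0. *GATA2* differed little (0.990% and 1.54%, against 0.942% and 1.44% of cells without it). None of the 81 D4 *TFAP2A* cells was called a doublet. The part of doublets in these shares was not tested further.

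From D4 to D6 none of the 5 members changed 2-fold in the embryonic gate as a whole, where 7.44% of all genes did. *GATA3* was lower by 0.66 on the log2 scale (−0.87 to −0.46) and *GATA2* by 0.50, and *GATA6* was 0.78 higher (0.43 to 1.14), from 98 to 218 UMIs. In cells with no *TFAP2A* the *GATA3* fall was larger (log2 −1.20, −1.46 to −0.95), from 6.93 to 3.01 CPM, with *GATA2* at −0.95.

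In the *TFAP2A* cells no difference between the days was detected for *GATA3* or *GATA2*, with log2 ratios of −0.06 (−0.63 to 0.54) and 0.29 (−0.71 to 1.45). The *GATA2* ratio rests on 10 UMIs at D4 and ran from −0.27 to 1.98 over the settings run, past 2-fold. The wider D6 ratios of *TFAP2A* cells over the rest came with a lower level in the rest. Whether *GATA2* also rose in the *TFAP2A* cells is not resolved by these counts. By the 2-fold rule 1 of the 5 members changed there, where 10.5% of all genes did. It was *GATA6*, with 0 against 17 UMIs, and against a floor of 3 counts the D6 level was at least 1.48-fold higher, below 2-fold.

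Genes of the same settings were read from the lists. Of 16 amnion and surface ectoderm genes, 6 of 12 measured at D4 and 8 of 14 at D6 were at least 2-fold higher with *TFAP2A*, which itself set the cells apart, with median log2 ratios of 1.00 and 1.43. Over all genes 7.71% and 4.72% were that much higher. *DLX5*, a homeobox gene of surface ectoderm, had the highest D6 ratio after *TFAP2A* (7.21 against 0.123 CPM, log2 5.87, 4.74 to 7.18). *GABRP* and *KRT18* had the smallest, at −0.25 (−1.91 to 1.04) and −0.02 (−0.08 to 0.03). Of 7 BMP target genes, 2 at D4 and 6 at D6 were higher, with medians of 0.86 and 1.15, led at D6 by *ID4* (200 against 54.5 CPM). *SMAD7* was the 1 below 2-fold at D6, at 0.43 (0.26 to 0.60).

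None of the 8 pluripotency genes differed 2-fold between *TFAP2A* cells and the rest on either day, and *POU5F1* and *SOX2* were required of both. Over all genes 7.71% at D4 and 4.72% at D6 were that much higher, and 17.0% and 8.81% lower. Of the endoderm list none was higher with *TFAP2A* on either day. At D4 10 of 19 were at least 2-fold lower, where 17.0% of all genes were, and at D6 none of 18, where 8.81% were. The list had 7 members at 0 UMIs in the 81 D4 cells, whose floor of 3 counts is 2.24 CPM. The trophoblast list gave 15 of 16 genes at 0 in the 81 cells and 16 of 16 in the 350. The whole list summed to only 0.493 and 0.432 CPM in cells with no *TFAP2A*. Those sums are under the floors of 2.24 and 0.584 CPM in the *TFAP2A* cells, so the zeros could not show a difference.

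A further 32 cells at D6 had at least 2 *TFAP2A* and at most 2 *FN1* UMIs but fell outside the embryonic gate, against 2 at D4. They held *GATA3* at 100 CPM (71.0 to 138), in 53.1% of cells, and *GATA5* at 15.8 (5.81 to 34.5). *GATA2* and *GATA6* had 1 UMI each and *GATA4* none, which allows up to 9.74. Embryonic cells with *TBXT*, the primitive streak factor, were too few to place (7 and 25 cells, with 3 and 6 *GATA3* UMIs and 3 and 5 *GATA6* UMIs).

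Cells with at least 3 *HAND1* UMIs, 6 at D4 and 103 at D6, also held *GATA2*. At D6 it stood at 21.5 CPM (14.7 to 30.4), but 14 of its 32 UMIs came from 1 cell. Without that cell it was 12.3 (7.28 to 19.4), which overlaps the 9.16 (6.73 to 12.2) of the *TFAP2A* cells, and the share of cells with a UMI was 11.7% in both. The *HAND1* cells held *GATA3* at 71.2 CPM, *GATA4* at 37.6, *GATA5* at 6.05 and *GATA6* at 208, so that *GATA6* made up 60.4% and *GATA2* 6.25% of their GATA UMIs. The 36 that also passed the hypoblast gate had *GATA2* at 47.8 (31.5 to 69.6), or 24.0 (12.8 to 41.0) without the same cell, and the 67 outside it had 5.41, with *GATA6* at 171 and *GATA3* at 65.0. Scrublet called 6 of the 103 cells doublets (5.83%), and 2 of these 6 were among the 67. It called 0.449% of the D6 hypoblast gate and 4.01% of all kept D6 cells. The part of doublets in these *GATA2* UMIs was not tested.

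*GATA2* was read in 12 of these 103 cells. Of genes listed for blood and endothelium, *KDR*, the VEGF receptor of endothelial and blood precursors, had 34 UMIs in 9 of the 12 and 28 UMIs in 17 of the other 91. *LMO2*, a partner of GATA factors in blood formation, had 6 UMIs in 2 of the 12 and none in the 91. *GATA1*, *TAL1*, *CDH5* and *PECAM1* had none in either, and *MESP1*, a factor of nascent mesoderm, stood at 4.81 against 215 CPM. These 12 cells of 1 library are a description, with the cells split by the gene described.

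Partners and cofactors of GATA proteins were taken as a list of 12. Between the gates, 2 of 10 measured were higher in the hypoblast gate on both days, 1 was lower at D4 and none at D6, with medians of 0.07 and −0.10. Of all genes 15.2% and 14.7% were higher and 16.5% and 22.2% lower, so 2 of 10 is near the background. *ZFPM2* (FOG2), which binds *GATA4* and modifies its activity in the heart, was the highest, at 9.83 and 18.0 CPM against 0.121 and 0.214 in the embryonic gate (log2 6.34 and 6.39). *LYL1*, a blood factor, followed at 5.12 and 5.84 against 0.536 and 0.641. *LMO2* was lowest, at 0.544 and 0.766 against 1.59 and 1.48.

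*ZFPM1* (FOG1), the partner of *GATA1* and *GATA2*, did not separate the gates, with a D4 log2 ratio of 0.15 (0.07 to 0.24). None of the 10 measured cofactors changed 2-fold between D4 and D6 in the hypoblast gate, where *ZFPM2* was 0.87 higher (0.70 to 1.04). Of all genes 12.4% changed that much there, so none of 10 is near that share. With *TFAP2A*, 7.71% of all genes at D4 and 4.72% at D6 were 2-fold higher, and 17.0% and 8.81% lower. None of 9 cofactors at D4 was 2-fold higher or lower with *TFAP2A*, nor at D6 was any of the 10 measured but *ZFPM2*. That gene had no UMI in the 350 D6 cells, and 0.216 CPM in cells with no *TFAP2A* is under their floor of 0.584, so no difference could be detected. *GATA1* and *TAL1* had at most 3 and 7 UMIs in either gate.

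The endoderm partners moved with the days as well. In the hypoblast gate 7 of 20 rose 2-fold or more from D4 to D6 and none fell, led by *AFP* (0.397 to 16.1 CPM) and *PDGFRA* (7.30 to 70.1), with a median of 0.24 on the log2 scale. Over all genes 6.40% rose that much and 6.02% fell. *DAB2* and *SPARC* had the smallest ratios, at −0.56 and −0.43. In the embryonic gate 2 of 19 were higher and 2 lower, where 5.43% and 2.02% of all genes were.

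Mesoderm and heart genes, where *GATA4* and *GATA6* also act, were higher in the hypoblast gate for 8 of 10 measured on both days. Their median log2 ratios were 3.22 at D4 and 2.71 at D6. Over all genes 15.2% and 14.7% were higher there. From D4 to D6, 6 of 11 mesoderm and heart genes rose in the hypoblast gate and 1 fell, where 6.40% and 6.02% of all genes did. *HAND1* went from 2.26 to 11.1 CPM, whereas *NKX2-5*, a heart factor, went from 34 UMIs to 4. Of the blood and endothelium list, 4 of 11 measured at D4 and 6 of 11 at D6 were higher in the hypoblast gate, and 4 and 2 were lower, among them *KDR* (D6 log2 −2.08). Over all genes 16.5% and 22.2% were lower, so 2 of 11 at D6 is near that share.

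The patterns of the members were compared over 11 groups that do not overlap (embryonic cells with 0, 1 and at least 2 *TFAP2A* UMIs, hypoblast cells with none of the markers and kept cells in no group on both days, and the 32 *TFAP2A* cells outside the embryonic gate at D6), by Pearson's r of log2 levels against 7756 genes, as a description. The groups of a day share a library, and most of the spread is between embryonic and hypoblast cells. *GATA6* was most like *MYL4* (0.999), *FLRT3* (0.998) and *APOA2* (0.998), and *GATA4* most like *LINC00479*, *LINC02413* and *TRPA1* (each 0.999 after rounding). *GATA3* was nearest *NOTUM* (0.977), *IER5L* and *CITED2* (both 0.976), and *GATA5* nearest *MBNL3* (0.980), *PLCG2* and *NEO1* (both 0.972).

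Among *GATA3*, *GATA4* and *GATA6*, *GATA4* with *GATA6* (0.986) were the closest pair, and *GATA3* came next with *GATA4* (0.852) and *GATA6* (0.850). *GATA3* with *GATA5* stood at 0.934, which is not ranked with these for the limit given below. The nearest genes of *GATA2* were *TRA2A* (0.852), *UNC5B* (0.844) and *TCF7L2* (0.843). *GATA2* and *GATA5* stayed under the 20 CPM asked of the other genes in all 11 groups, and the pseudocount of 10 damps their spread, so their values of r cannot be set beside those of the other members.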

How the data were processed

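The authors deposited raw counts: UMI counts per gene and cell for each 10x 3′ library, which, per the labels and file headers, came from Cell Ranger 6.0.1 on hg38 with Seurat 4.0.1 and R 4.0.3 also named. No normalized values were used. The D4 and D6 libraries came from ESI017 hEEs, and 7 bisulfite libraries were not analysed here.

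Cells with 3430 to 27500 UMIs and at most 10% mitochondrial UMIs were gated on UMI counts, without clustering. Levels are summed UMIs per 1000000 of the group (CPM) with exact Poisson intervals, shares have exact binomial (Clopper-Pearson) intervals and ratios exact conditional binomial intervals, all at 95%. A gene was counted as higher, lower or changed at 2-fold, among genes with at least 10 UMIs over both groups. Likeness used log2(CPM + 10) and searched genes at 20 CPM or more in at least 1 group, a limit not asked of the members. Doublets were called with Scrublet in scanpy 1.11.5 (267 and 405 kept cells) and stayed in. Among cells that entered no group they were 16.0% and 22.7%. Python 3.11.15, numpy 2.4.6, pandas 2.3.3 and scipy 1.17.1 were used.

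The members, gates and gene lists were chosen with earlier results of these data known. All 5 members are named in every gate, with the 3 genes most like each, all antisense and cofactor genes as needed, and from other lists the 2 largest and 2 smallest ratios. *FOXA2*, *CGA*, *ELF5*, *TP63*, *MESP1*, *KDR* in *HAND1* cells and the genes set beside *GATA6* counts were chosen outside that rule, with their values seen. The limit of 20 cells per group for likeness, the *HAND1* split of the hypoblast gate the 67 *HAND1* cells outside it and the values without the cell richest in *GATA2* were added after seeing the data. *GATA4* and *GATA5* have no promoter window in the table used.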

Additional observations from a re-analysis of the deposited data

How the results depend on the processing

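Of the counts recomputed under other settings, 72 stayed within 1.5 times the main count and 7 moved further. Of the recomputed log2 ratios, 247 moved by less than their counting interval and 43 by more, and no called ratio changed sign. Shares of cells stayed within theirs in 169 cases and moved further in 41, of which 26 came from thinning. The 4 of 5 members higher in the hypoblast gate held under each setting run. These were no cell filter, stricter and looser gates, gate genes scaled to 10000 UMIs, thinning to 3430 UMIs, doublet calls left out and the mean over cells. Any UMI in place of 10, subtraction of free RNA where it applied and, chosen after seeing the data, shared barcodes left out were also run. The 0 of 5 changed in the embryonic gate held wherever that count was recomputed. The D6 over D4 log2 ratio of *GATA6* there nonetheless ran from 0.61 to 2.27 over the settings, past 2-fold. For *GATA2* in the hypoblast gate alone, the *HAND1* cells and the cell richest in *GATA2* were also left out, again after seeing the data (D6 over D4 log2 −1.82 and −1.12). The number of members changed from D4 to D6 in the hypoblast gate went from 1 to 2 with stricter gates, with scaled gate genes and with thinning, in each case by *GATA2*. In the *TFAP2A* cells it went from 1 to 0 with stricter gates and with doublet calls left out. With thinning, the number of member, gate and day combinations read in at least 10% of cells went from 12 to 6, and that of member pairs read together in at least 10% of hypoblast-gate cells from 11 to 5, since thinned cells hold fewer UMIs. Any UMI in place of 10 moved the share of all genes past 2-fold to 20.8% and 18.0% (hypoblast over embryonic, D4 and D6), 7.88% and 8.42% (*TFAP2A*), and 27.8%, 22.1% and 33.4% (D6 over D4 in the hypoblast gate, embryonic gate and *TFAP2A* cells). Under these settings the D6 over D4 log2 ratio of *GATA6* in the hypoblast gate ran from 1.26 to 1.30 and the D4 hypoblast over embryonic ratio of *GATA4* from 5.51 to 7.69. The 81 *TFAP2A* cells of D4 give *GATA2* 10 UMIs and *GATA4* 2, which limits what they can show. No paired analysis was possible because each day has 1 library and the replicate numbers in the labels are on the bisulfite libraries.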
